A study of Homo sapiens with 28 samples.

Results

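Axon guidance genes were followed across 28 RNA sequencing libraries of Kelly cells, an established human neuroblastoma line with an amplified MYCN gene. The group was taken by gene symbol: semaphorins, plexins, neuropilins, ephrins, Eph receptors, Slits, Robos, netrins, UNC5 receptors, DCC and NEO1, with a mean count of at least 10 over the 28 libraries. Of 30887 rows in the table, 67 carried such a symbol and 58 reached that mean: 31 genes of ligand families and 27 of receptor families. SEMA5B (mean count 10.4), EPHA4 (10.5), NTN1 (11.8) and SEMA3B (12.2) lay just above the limit, and EPHB1 (5.29) lay just below it. The other 8 genes below it were EPHB6, NTN5, ROBO4, EPHB4, EFNA2, DCC, EPHA6 and SEMA6B. All 58 members passed the filter on low counts and were tested.

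The 7 groups of 4 libraries share 1 cell line and 1 protocol: cells received 25 nM of a scrambled control or of a mimic of miR-1283, miR-99b-5p, miR-100-3p, miR-380-3p, miR-1915-3p or miR-485-3p, and were collected after 48 h. A mimic is a synthetic double-stranded RNA that loads a chosen microRNA into the silencing complex, so it raises that microRNA above its natural level. Whether replicates are separate cultures is not stated, so p-values measure only the spread between these libraries, which may be technical. The levels of the mimics themselves were not analysed here.

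Growing axons read secreted and membrane-bound cues through receptors on the growth cone. Slits bind Robo receptors and repel, semaphorins act through plexins, often with a neuropilin as co-receptor, ephrins on 1 cell bind Eph receptors on its neighbour, and netrins attract through DCC and NEO1 or repel through UNC5. Neuroblastoma arises from sympathetic neural crest cells, whose migration and wiring use the same cues. Many of these proteins also act in blood vessels and in tumours.

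The mature sequences of the 6 mimicked microRNAs are shown because their seeds set which messages can be paired. Capitals mark the seed, bases 2 to 8, and the sequences are from RefSeq (GRCh38.p14).
miR-99b-5p: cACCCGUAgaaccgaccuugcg
miR-380-3p: uAUGUAAUaugguccacaucuu
miR-485-3p: gUCAUACAcggcucuccucucu
miR-100-3p: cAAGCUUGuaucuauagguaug
miR-1915-3p: cCCCAGGGcgacgcggcggg
miR-1283: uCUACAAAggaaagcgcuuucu
No seed is shared by any pair of these 6 microRNAs, although miR-99b-5p and miR-100-3p carry related names: miR-100-3p comes from the 3′ arm of its hairpin and miR-99b-5p from the 5′ arm.

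Library totals ran from 10992874 to 23296088 expected counts (median 14999645), and members held 0.239% to 0.324% of them. All 13 neuroblastoma identity genes checked were expressed, with MYCN at 5050 ± 206 CPM, a count scaled for library depth, in the control (SD, n = 4). Their summed level was 12800 to 13900 CPM in the control libraries and lower under miR-99b-5p (9630 to 11800), miR-380-3p (10000 to 12300) and miR-485-3p (8460 to 11700). The sum came mostly from MYCN, CHGA and DBH, and the genes did not all fall. Under miR-99b-5p 1 was called higher (CHGB, 0.50) and 5 lower. Under miR-380-3p 2 were called higher (STMN2, 1.17, and ISL1, 0.44) and 4 lower, and under miR-485-3p 0 and 4. These are 46.2%, 46.2% and 30.8% of the 13, against 16.6%, 10.9% and 21.1% of all tested genes. Of 14 markers of fibroblasts, endothelium, leukocytes, epithelium and Schwann cells, 6 were tested, and their sum over all 14 was 65.8 to 100 CPM, mostly from PDGFRB (73.3 ± 3.75 in the control). Under miR-99b-5p VWF (-1.44), COL1A1 (-0.99) and KRT19 (-0.71) were called lower. Under miR-380-3p KRT19 (-1.01) and PDGFRB (-0.44) were called lower and COL1A1 (0.54) higher, and under miR-485-3p VWF (-1.25) was called lower. SOX10, S100B, COL1A2 and PECAM1 were at 0 in the control. The GC slope of a library, its excess of GC-rich messages, averaged from -0.75 under miR-99b-5p to 0.62 under miR-485-3p, and members are GC-rich (median 57.8% against 48.3% over tested genes). The part of the identity genes and of these markers in the results below was not tested. With the GC slope as a covariate, an alternative added after seeing the data, none of the 58 calls against the control described below was lost and more were made. The share of all tested genes called rose too, from 21.1% to 32.4% under miR-485-3p.

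Levels between genes are compared as CPM per kilobase of gene length in the control. SLIT3, a secreted Robo ligand, was highest at 116 ± 10.7. The semaphorin receptors PLXNA1 (60.6 ± 7.03), PLXNB2 (51.8 ± 3.64) and PLXND1 (51.2 ± 3.46) came next. UNC5B (46.8 ± 2.45) and UNC5C (30.3 ± 1.17), netrin receptors, were the fifth and the sixth in order. Neighbours from PLXNA1 to UNC5B had overlapping spreads (mean ± SD), and SLIT3 and UNC5C were clear of their neighbours. The co-receptors NRP1 and NRP2 stood at 24.9 ± 1.15 and 15.3 ± 1.91. The remaining plexins were PLXNA2 (19.0), PLXNB1 (17.3), PLXNA3 (11.6), PLXNA4 (4.19), PLXNB3 (1.31) and PLXNC1 (0.864). ROBO1 (17.2) and ROBO2 (16.1) were close to each other and ROBO3 was lower (6.06).

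Ligands other than SLIT3 stood at 13.2 or below per kilobase, within a range that many receptors shared. SLIT1 stood at 2.52 and SLIT2 at 2.05. Among semaphorins the control levels were SEMA3F 13.2, SEMA6A 12.2, SEMA4C 7.69, SEMA4G 4.87, SEMA7A 4.45, SEMA4B 3.49, SEMA6D 3.19, SEMA4D 3.02, SEMA3E 2.74, SEMA4F 2.36, SEMA3A 2.30, SEMA6C 2.07 and SEMA4A 1.59. Those under 1 were SEMA3G 0.669, SEMA3D 0.633, SEMA3B 0.599, SEMA5B 0.270, SEMA3C 0.268 and SEMA5A 0.165. Ephrins spanned a narrow range: EFNB1 8.86, EFNA5 7.93, EFNA3 6.74, EFNB3 5.86, EFNA1 5.00, EFNA4 3.52 and EFNB2 2.75. Eph receptors were EPHB3 16.2, EPHB2 10.2, EPHA10 4.44, EPHA8 3.49, EPHA2 2.62, EPHA7 2.37, EPHA4 0.467 and EPHA5 0.161. UNC5A stood at 8.54, UNC5D at 0.257, NEO1 at 2.46, NTN3 at 0.540 and NTN1, the lowest member, at 0.156. Both measured netrins were among the 8 lowest members.

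**Figure D1:**
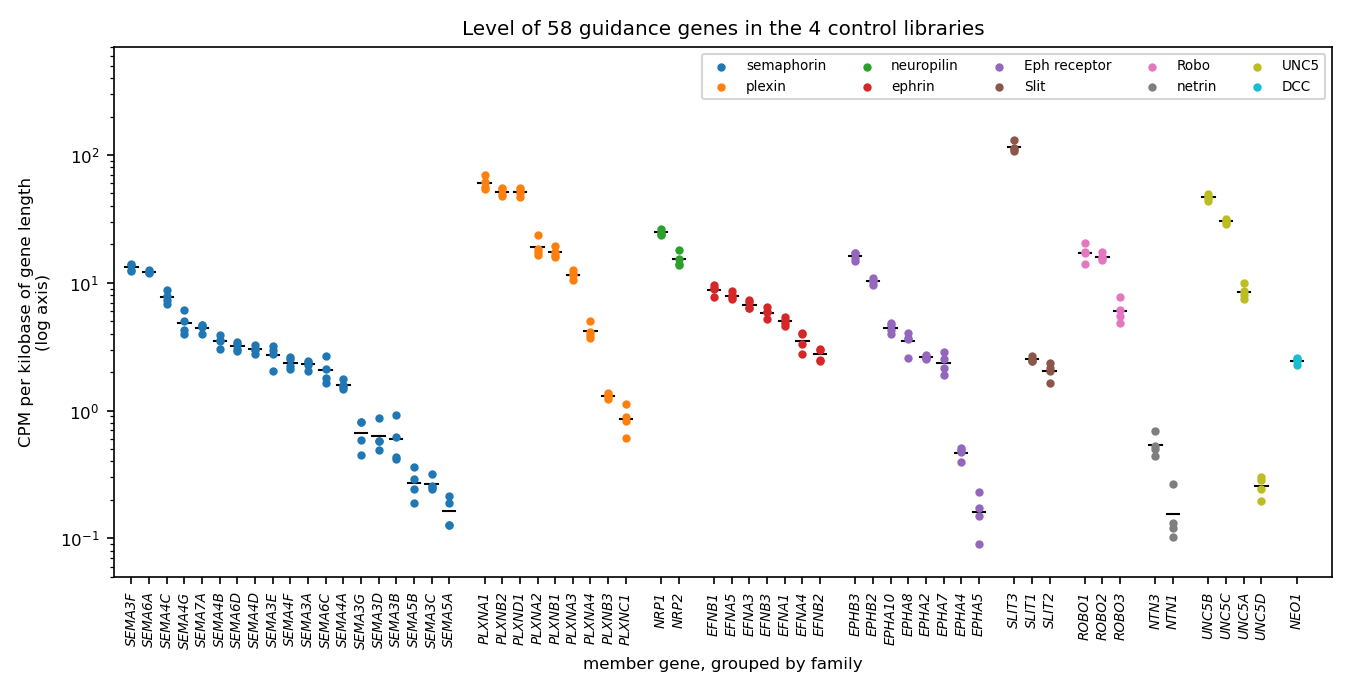
Level of each of the 58 members in the 4 control libraries (points) with the mean (black line), as CPM per kilobase of gene length on a log axis, by family. SLIT3 is highest at 116 and NTN1 lowest at 0.156, and plexins hold 3 of the 4 highest places.

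Against the scrambled control, 4 mimics, called the active mimics below, changed members and the other 2 changed none at an adjusted p under 0.05 (edgeR quasi-likelihood test, Benjamini-Hochberg over all 15058 genes). Under miR-99b-5p 16 members were called, 11 higher and 5 lower, where 16.6% of all tested genes were called (8.11% higher and 8.48% lower). Under miR-380-3p 16 were called, 13 higher and 3 lower, against 10.9% of all genes (5.6% higher and 5.25% lower). Under miR-485-3p 16 were called, 6 higher and 10 lower, against 21.1% (10.5% higher and 10.6% lower). Under miR-100-3p 10 were called, 8 higher and 2 lower, against 5.96% (2.9% higher and 3.05% lower). As shares, 27.6% of members were called under each of miR-99b-5p, miR-380-3p and miR-485-3p, and 17.2% under miR-100-3p. All 6 comparisons share the 4 control libraries. RNA was taken from whole cultures, so fewer cells expressing a gene and less RNA per cell cannot be told apart.

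The median log2 change of members was 0.03 under miR-99b-5p, 0.05 under miR-380-3p and -0.05 under miR-485-3p, where all tested genes had medians of 0.00, 0.00 and 0.02. Under miR-100-3p it was 0.19, against -0.01. The median size of the change without its sign was larger in members than over all genes under all 6 mimics. For the 4 mimics above it was 0.30 against 0.18, 0.19 against 0.16, 0.25 against 0.19 and 0.29 against 0.14. Under miR-1915-3p it was 0.16 against 0.09, and under miR-1283 0.12 against 0.08, with no member called. The signed medians of members there were -0.08 and -0.1. Members had a lower median level than tested genes (13.2 against 21.9 CPM), and the part of level in these sizes was not tested. In all, 34 members were called under at least 1 mimic (39.0% of all genes were) and 19 under at least 2 (12.4% of all genes were).

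**Figure D2:**
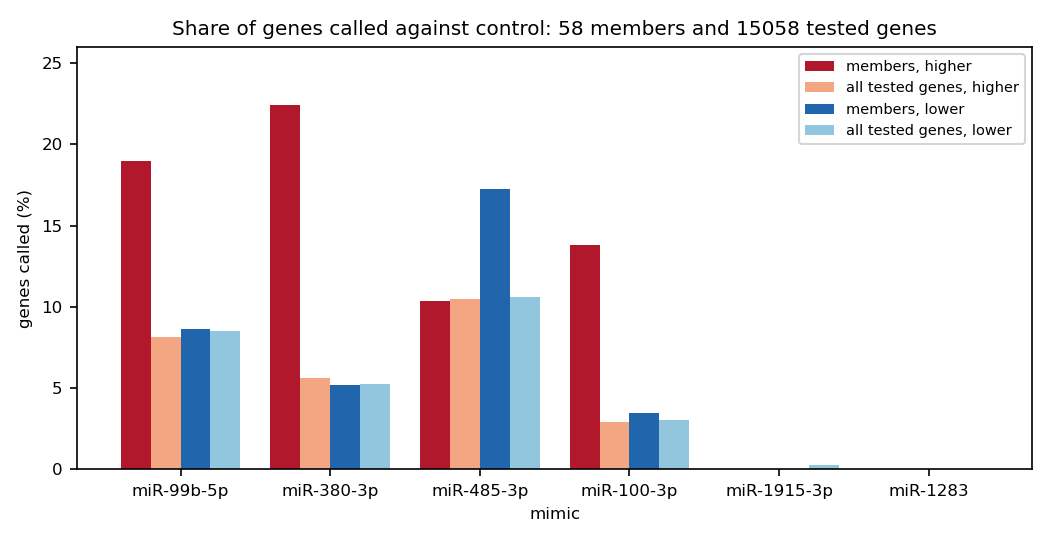
Percentage of genes called higher (red) or lower (blue) against control under each mimic, for the 58 members (dark) and all 15058 tested genes (light). The member bars for higher calls stand above those of all genes under miR-99b-5p, miR-380-3p and miR-100-3p, and under miR-485-3p the taller member bar is that for lower calls.

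**Figure D3:**
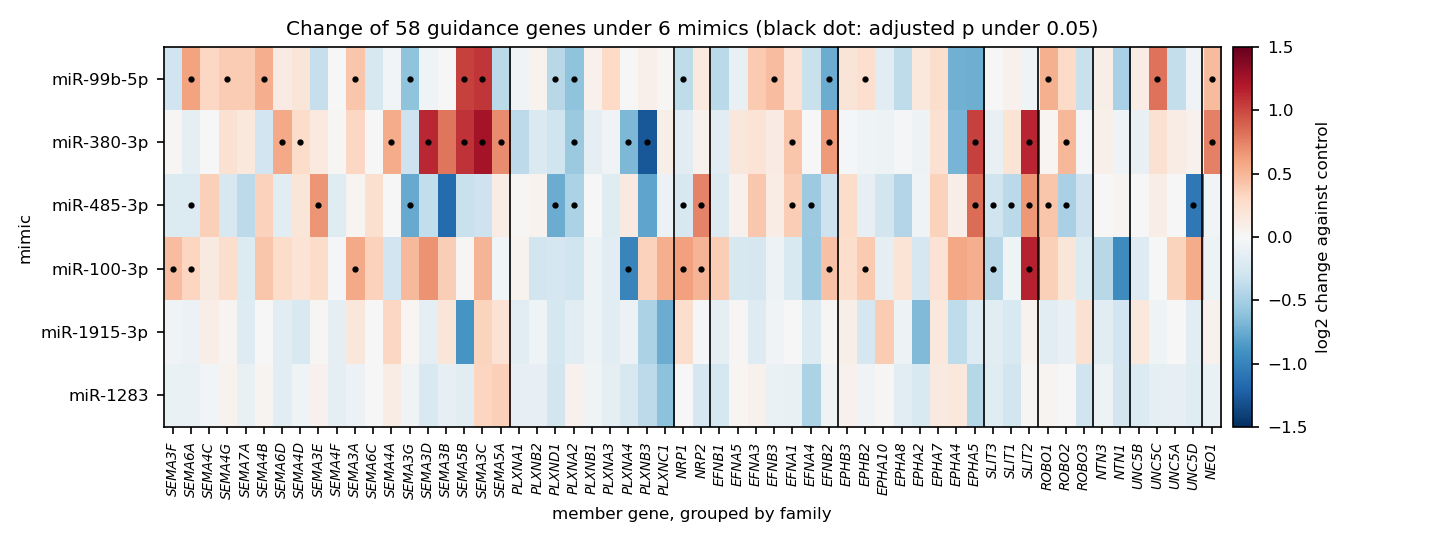
Log2 change of each member under each mimic against control (blue lower, red higher), with genes ordered by family and by control level within it, and a dot where the adjusted p was under 0.05. All 8 dots in the plexin columns are on blue cells, and the miR-1915-3p and miR-1283 rows hold no dot.

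SLIT2, the ligand best known for repelling axons at the midline, rose under 3 mimics. SLIT3 fell under 2 of these, miR-485-3p and miR-100-3p, and SLIT1 fell under miR-485-3p, while under miR-380-3p neither was called (-0.11, adjusted p = 0.352, and 0.21, adjusted p = 0.241). SLIT2 measured 14.1, 9.96, 12.3 and 13.0 CPM in the controls and 25.0, 21.9, 29.3 and 32.2 under miR-380-3p, a log2 change of 1.14 ± 0.14 (SE, adjusted p = 2.93e-06). Under miR-100-3p it measured 23.4, 25.6, 32.8 and 28.2 CPM (1.15 ± 0.14, adjusted p = 7.95e-06). Under miR-485-3p it measured 19.6, 15.3, 24.6 and 17.5 CPM (0.65 ± 0.14, adjusted p = 0.00151). Every library of these 3 mimics was above every control library. The direct comparison of miR-380-3p with miR-485-3p gave 0.49 ± 0.14 (adjusted p = 0.00806) and that of miR-485-3p with miR-100-3p gave -0.50 ± 0.14 (adjusted p = 0.00678). The difference between miR-380-3p and miR-100-3p was -0.01 ± 0.13 (adjusted p = 0.966). Under miR-99b-5p SLIT2 was at 11.7 CPM, and its difference from miR-380-3p was -1.21 ± 0.14 (adjusted p = 2.51e-07).

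SLIT3, the most abundant member, measured 493, 481, 468 and 572 CPM in the controls. It fell to 387, 401, 364 and 357 CPM under miR-100-3p (log2 change -0.42 ± 0.07, adjusted p = 0.000354). It fell to 415, 416, 358 and 444 CPM under miR-485-3p (-0.30 ± 0.07, adjusted p = 0.00229). Both sets of 4 lay below all 4 controls, and SLIT3 under miR-99b-5p stood at 508 CPM (0.01 ± 0.07). SLIT1 went from 18.9 ± 0.732 to 14.2 ± 0.953 CPM under miR-485-3p, a log2 change of -0.41. In the same miR-485-3p libraries 1 Slit was called higher and the other 2 lower.

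ROBO1 and ROBO2, the main Slit receptors of axons, took opposite directions under miR-485-3p. ROBO1 measured 68.7, 67.4, 54.9 and 80.6 CPM in the controls and 102, 100, 85.9 and 103 under miR-99b-5p (0.53 ± 0.12, adjusted p = 0.00233), with no overlap. Under miR-485-3p it measured 89.8, 70.4, 98.2 and 106 CPM, which overlaps the controls (0.42, adjusted p = 0.0112). ROBO2 measured 49.5, 51.5, 53.0 and 58.0 CPM in the controls, 63.5, 61.0, 83.7 and 91.7 under miR-380-3p (0.50 ± 0.15, adjusted p = 0.0303) and 35.2, 29.3, 42.2 and 44.0 under miR-485-3p (-0.49, adjusted p = 0.0233). The 3 sets of ROBO2 values do not overlap, and miR-380-3p stood 0.99 ± 0.15 above miR-485-3p in the direct comparison (adjusted p = 1.54e-05). ROBO3, a divergent receptor of commissural axons, was called under no mimic, with log2 changes between -0.33 and 0.23.

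Several of these calls rest on single libraries. ROBO1 under miR-485-3p was lost without control replicate 4 or without miR-485-3p replicate 3 or 5 (adjusted p = 0.056 to 0.0644). ROBO2 under miR-485-3p was lost without control replicate 5 or miR-485-3p replicate 1 or 2 (0.0656 to 0.0804). ROBO2 under miR-380-3p was lost without miR-380-3p replicate 3 or 4, or without control replicate 1, 2 or 4 (0.0626 to 0.145). The calls of the 3 Slits were kept in each such repeat.

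Every plexin call was a fall: 2 of 9 plexins under miR-99b-5p (22.2%, against 8.48% of all genes called lower), 3 under miR-380-3p (33.3%, against 5.25%), 2 under miR-485-3p (22.2%, against 10.6%) and 1 under miR-100-3p (11.1%, against 3.05%). PLXNA2, a receptor for class 6 semaphorins, fell under 3 mimics. It measured 150, 158, 142 and 201 CPM in the controls, 116, 114, 96.6 and 104 under miR-99b-5p (-0.60 ± 0.10, adjusted p = 0.000148), and 124, 103, 113 and 104 under miR-380-3p (-0.56 ± 0.10, adjusted p = 0.00061). Under miR-485-3p it measured 123, 110, 109 and 128 CPM (-0.47, adjusted p = 0.00158). None of these 12 values reached the lowest control. No pair of these 3 mimics was called different (differences between -0.13 and -0.04, SE 0.10).

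PLXND1, the receptor that SEMA3E can bind without a neuropilin, measured 84.1, 90.1, 95.1 and 98.4 CPM in the controls. It fell to 56.5, 61.2, 46.4 and 55.8 CPM under miR-485-3p (-0.74 ± 0.11, adjusted p = 1.27e-05) and to 59.3, 67.1, 64.8 and 82.6 under miR-99b-5p (-0.42, adjusted p = 0.00629). The fall under miR-485-3p was larger than that under miR-99b-5p by 0.32 ± 0.11 (adjusted p = 0.0239). SEMA3E itself rose under miR-485-3p, from 8.96 ± 1.65 to 14.1 ± 3.53 CPM (0.66 ± 0.17, adjusted p = 0.00724), with ranges that overlap. That SEMA3E call was lost without miR-485-3p replicate 3 (adjusted p = 0.0542).

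PLXNA4, which mediates responses to SEMA3A and to class 6 semaphorins, fell under the mimics of miR-100-3p and miR-380-3p. It measured 50.7, 52.9, 47.4 and 64.9 CPM in the controls and 31.7, 29.6, 25.0 and 22.4 under miR-100-3p (-0.99 ± 0.14, adjusted p = 4.62e-05). Under miR-380-3p it measured 42.9, 31.3, 35.1 and 27.1 CPM (-0.67 ± 0.14, adjusted p = 0.00172). All 8 values lay below the controls, and the 2 mimics differed by 0.33 ± 0.14 (adjusted p = 0.119). PLXNB3, a receptor for SEMA5A, measured 2.15 ± 0.0967 CPM in the control and 0.845, 1.75, 0.748 and 0.291 under miR-380-3p (-1.27 ± 0.42, adjusted p = 0.0491). That call was lost without any 1 of 7 of the 8 libraries, miR-380-3p replicate 2 being the exception (adjusted p = 0.0763 to 0.189).

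The abundant PLXNA1, PLXNB2 and PLXNB1 were called under no mimic. PLXNA1 stood at 376 ± 43.6 CPM in the control and had its largest change, -0.39 ± 0.14, under miR-380-3p (adjusted p = 0.0722). The changes of PLXNB2, PLXNB1, PLXNA3 and PLXNC1 under the 4 active mimics lay between -0.27 and 0.54.

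NRP1 and NRP2, the co-receptors that bind class 3 semaphorins and vascular growth factors, had calls under 3 and 2 mimics. NRP1 measured 81.3, 84.0, 88.6 and 79.8 CPM in the controls and rose to 123, 125, 142 and 120 under miR-100-3p (0.61 ± 0.09, adjusted p = 4.62e-05). It fell to 66.3, 67.4, 64.9 and 57.5 CPM under miR-99b-5p (-0.38, adjusted p = 0.00247). Neither set overlaps the controls, and miR-99b-5p stood below miR-100-3p by a log2 difference of -0.99 ± 0.09 (adjusted p = 2.08e-09). Under miR-485-3p NRP1 changed by -0.24 (adjusted p = 0.0482), a call lost without any 1 control library or without miR-485-3p replicate 1 or 2 (0.0564 to 0.175).

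NRP2 measured 69.0, 62.1, 63.7 and 81.0 CPM in the controls, 120, 106, 120 and 115 under miR-485-3p (0.74 ± 0.09, adjusted p = 1.38e-06) and 88.7, 99.4, 112 and 94.0 under miR-100-3p (0.51 ± 0.09, adjusted p = 0.000778). Both sets lay above all controls, and the 2 mimics differed by 0.23 ± 0.09 (adjusted p = 0.0675). Both neuropilins rose under miR-100-3p, and under miR-485-3p NRP2 rose while NRP1 fell.

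**Figure D4:**
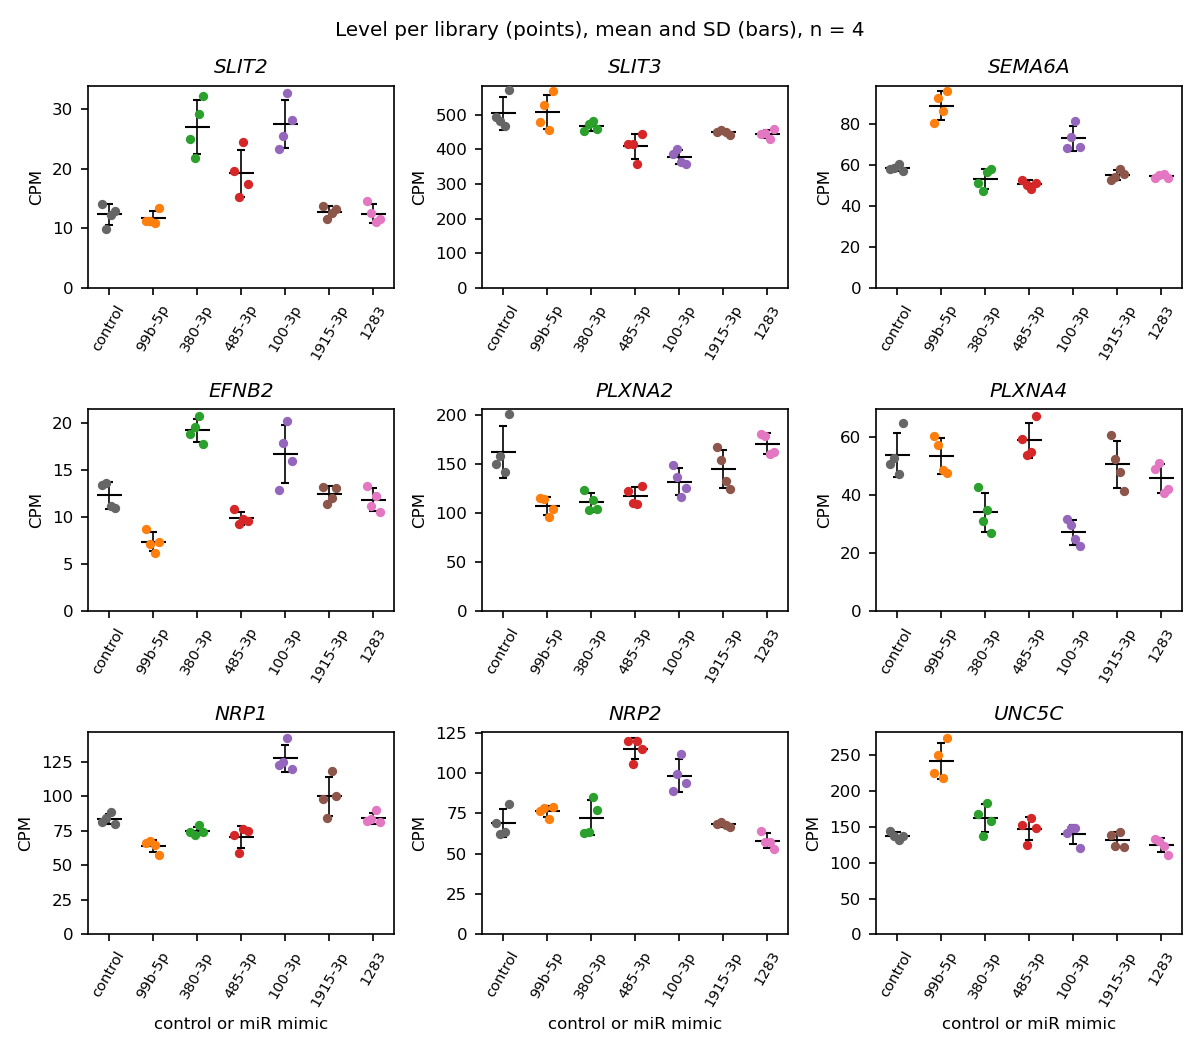
CPM of 9 members in each of the 28 libraries (points, 4 per group) with mean and SD, on axes that start at 0. SLIT2 rises under miR-380-3p, miR-485-3p and miR-100-3p, UNC5C under miR-99b-5p, and NRP1 and EFNB2 lie below control under miR-99b-5p and above it under miR-100-3p.

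Of 19 semaphorins, 6 rose and 1 fell under miR-99b-5p (36.8%, against 16.6% of all genes) and 7 rose under miR-380-3p (36.8%, against 10.9%). Under miR-485-3p 1 rose and 2 fell (15.8%, below the 21.1% of all genes), and under miR-100-3p 3 rose (15.8%, against 5.96%). SEMA6A, a transmembrane ligand of PLXNA2 and PLXNA4, was the most precisely measured. It stood at 58.4, 58.5, 60.5 and 57.4 CPM in the controls and at 80.7, 93.1, 86.4 and 96.4 under miR-99b-5p (0.60 ± 0.07, adjusted p = 3.13e-07). Under miR-100-3p it stood at 68.3, 74.0, 81.6 and 68.8 CPM (0.32, adjusted p = 0.00457), and under miR-485-3p at 52.8, 50.4, 48.5 and 51.4 (-0.21, adjusted p = 0.0295). All 3 sets are clear of the controls, and miR-99b-5p stood 0.81 ± 0.07 above miR-485-3p (adjusted p = 4.52e-10). Under miR-99b-5p SEMA6A rose and its receptor PLXNA2 fell. The miR-485-3p call was lost without miR-485-3p replicate 3, or without control replicate 1, 2 or 4 (0.0555 to 0.0738).

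Of the secreted class 3 semaphorins, usually neuropilin ligands, at least 1 rose under each of the 4 active mimics. Under miR-485-3p it was only SEMA3E, which can bind PLXND1 without a neuropilin. That call was lost without miR-485-3p replicate 3. SEMA3C measured 0.941, 1.22, 0.980 and 0.987 CPM in the controls, 2.03, 2.41, 3.12 and 2.27 under miR-380-3p (1.25 ± 0.23, adjusted p = 0.000576) and 2.31, 2.53, 2.33 and 1.47 under miR-99b-5p (1.07 ± 0.23, adjusted p = 0.00188). Neither set overlaps the controls. SEMA3D measured 2.97, 4.49, 2.49 and 2.96 CPM in the controls and 7.01, 5.61, 7.16 and 8.39 under miR-380-3p (1.13 ± 0.27, adjusted p = 0.00518). SEMA3A, which collapses sensory growth cones, went from 13.8 ± 1.12 to 20.7 ± 3.57 CPM under miR-100-3p (0.57 ± 0.12, adjusted p = 0.00435) and changed by 0.42 under miR-99b-5p. SEMA3F changed by 0.46 under miR-100-3p, the mimic under which both neuropilins rose.

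SEMA3G was the exception among class 3 members with calls: it fell. It measured 2.90, 2.21, 3.99 and 4.01 CPM in the controls, 1.89, 1.28, 2.21 and 2.30 under miR-485-3p (-0.76 ± 0.20, adjusted p = 0.00852) and 2.10, 1.90, 2.73 and 1.97 under miR-99b-5p (-0.60 ± 0.20, adjusted p = 0.0377), each overlapping the controls. SEMA3B, at 0.731 ± 0.290 CPM in the control, was called under no mimic.

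Of the other semaphorins, SEMA5B was called higher under 2 mimics and 6 were called higher under 1 each. SEMA5B went from 0.566 ± 0.153 CPM to 1.19 ± 0.237 under miR-380-3p (1.08 ± 0.33, adjusted p = 0.0312) and to 1.14 ± 0.174 under miR-99b-5p (1.02 ± 0.33, adjusted p = 0.0305). Its mean count (10.4) was just above the limit of 10, and its level was 0.289 to 0.566 CPM in all other groups. It thus became a member through the groups where it was high, which favours these calls. Both are in the counts and shares of semaphorins, ligands and members. SEMA5A went from 1.94 ± 0.514 to 3.15 ± 0.868 CPM under miR-380-3p (0.71 ± 0.21, adjusted p = 0.0308). SEMA6D, a PLXNA1 ligand, went from 16.2 ± 1.19 to 23.9 ± 3.37 CPM under miR-380-3p (0.57 ± 0.12, adjusted p = 0.00146), and SEMA4A from 4.17 ± 0.332 to 6.16 ± 0.865 (0.56 ± 0.16, adjusted p = 0.0191). SEMA4B rose under miR-99b-5p, from 11.9 ± 1.25 to 17.5 ± 2.64 CPM (0.55 ± 0.13, adjusted p = 0.00376). SEMA4D, the PLXNB1 ligand, changed by 0.28 under miR-380-3p and SEMA4G by 0.38 under miR-99b-5p. SEMA4C, SEMA7A, SEMA4F and SEMA6C were called under no mimic.

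Many semaphorin calls depended on single libraries. SEMA4D under miR-380-3p was lost without any 1 of 7 of the 8 libraries, control replicate 5 being the exception (adjusted p = 0.0553 to 0.155). SEMA5B under miR-380-3p was lost without miR-380-3p replicate 2, 3 or 4, or without control replicate 1, 2 or 5 (0.0578 to 0.109), and under miR-99b-5p without control replicate 1, 2 or 5 or miR-99b-5p replicate 3 or 4 (0.0548 to 0.104). SEMA5A was lost without miR-380-3p replicate 1 or 3, or without control replicate 4 or 5 (0.0561 to 0.179), and SEMA4A without miR-380-3p replicate 2 or 4, or without control replicate 4 or 5 (0.0514 to 0.0622). SEMA4G was lost without miR-99b-5p replicate 3 or 4, or without control replicate 1 or 5 (0.0687 to 0.114). SEMA3G under miR-99b-5p was lost without miR-99b-5p replicate 2, 3 or 7, or without control replicate 4 or 5 (0.0765 to 0.141), and SEMA3A under miR-99b-5p without miR-99b-5p replicate 7 or control replicate 4 (0.0591 to 0.0729). SEMA3F was lost without miR-100-3p replicate 4, or without control replicate 1, 2 or 5 (0.0562 to 0.105). The calls of SEMA3C, SEMA3D, SEMA4B and SEMA6D, and that of SEMA3A under miR-100-3p, were kept in each such repeat.

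EFNB2, a transmembrane ephrin that marks arteries and signals back into the cell that carries it, was called under 3 mimics in both directions. It measured 13.4, 13.6, 11.2 and 10.9 CPM in the controls, 8.69, 7.17, 6.19 and 7.37 under miR-99b-5p (-0.74 ± 0.12, adjusted p = 8.56e-05) and 18.8, 19.5, 20.7 and 17.7 under miR-380-3p (0.64 ± 0.12, adjusted p = 0.000426). These 3 sets do not overlap, and miR-99b-5p stood below miR-380-3p by a log2 difference of -1.38 ± 0.12 (adjusted p = 1.73e-09). Under miR-100-3p EFNB2 measured 12.9, 17.8, 20.2 and 15.9 CPM (0.44, adjusted p = 0.0228), overlapping the controls. The call did not hold without miR-100-3p replicate 2 or 3, or without control replicate 4 or 5 (0.0675 to 0.121). EFNB3, the ephrin of the spinal midline, rose under miR-99b-5p by 0.46, and the 2 called B-type ephrins moved in opposite directions under that mimic.

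The lipid-anchored EFNA1 and EFNA4 had calls under miR-485-3p in opposite directions. EFNA1 measured 6.88, 5.78, 6.18 and 6.51 CPM in the controls and 8.01, 8.30, 7.61 and 8.83 under miR-485-3p (0.37, adjusted p = 0.0414). Under miR-380-3p it changed by 0.42 (adjusted p = 0.0333). EFNA4 went from 4.45 ± 0.764 to 3.03 ± 0.656 CPM under miR-485-3p (-0.54 ± 0.19, adjusted p = 0.0427). The 3 calls had adjusted p-values between 0.0333 and 0.0427. EFNA1 under miR-485-3p was lost without any 1 of 7 of the 8 libraries, control replicate 1 being the exception (0.0606 to 0.115). Under miR-380-3p it was lost without any 1 library but control replicate 1 or miR-380-3p replicate 1 (0.0516 to 0.101). EFNA4 was lost without any 1 library but control replicate 5 or miR-485-3p replicate 3 (0.0547 to 0.121). EFNB1, EFNA5 and EFNA3, the more abundant ephrins per kilobase, were called under no mimic.

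Among 8 Eph receptors, 1 was called under each active mimic and always higher (12.5%, against 2.9% to 10.5% of all genes called higher). EPHB2, a receptor for B-type ephrins, measured 41.3, 44.5, 46.9 and 44.2 CPM in the controls and 55.2, 54.2, 59.1 and 62.5 under miR-100-3p (0.39, adjusted p = 0.00332), with no overlap. Under miR-99b-5p its change was 0.25 (adjusted p = 0.0303), lost without any 1 library but miR-99b-5p replicate 2 or control replicate 4 (0.0587 to 0.116). EPHA5, a receptor for A-type ephrins in neurons, measured 1.30, 1.75, 0.678 and 1.12 CPM in the controls, 3.04, 1.68, 2.55 and 2.56 under miR-380-3p (1.02 ± 0.25, adjusted p = 0.00848) and 2.21, 1.28, 2.50 and 2.61 under miR-485-3p (0.84 ± 0.26, adjusted p = 0.0195). Each of those sets holds 1 library within the control range. The miR-485-3p call was lost without miR-485-3p replicate 3 or 5, or without control replicate 4 or 5 (0.0513 to 0.0825). Under miR-99b-5p EPHA5 stood at 0.729 CPM, below miR-380-3p by a log2 difference of -1.75 ± 0.27 (adjusted p = 1.47e-05). EPHB3, EPHA10, EPHA8, EPHA7 and EPHA4 were called under no mimic.

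UNC5C, which turns netrin attraction into repulsion, was called under 1 mimic. It measured 145, 138, 132 and 137 CPM in the controls and 225, 251, 219 and 274 under miR-99b-5p (0.81 ± 0.09, adjusted p = 4.47e-07). All 4 mimic libraries were above all controls. In direct comparisons UNC5C was higher under miR-99b-5p than under each of the other 5 mimics, by 0.58 to 0.97 (SE 0.09, adjusted p = 2.28e-08 to 3.11e-05). NEO1, a netrin and RGM receptor, measured 8.40, 8.14, 7.31 and 7.89 CPM in the controls, 13.6, 12.3, 13.0 and 14.9 under miR-380-3p (0.76 ± 0.11, adjusted p = 1.55e-05) and 11.1, 10.9, 10.9 and 11.4 under miR-99b-5p (0.48, adjusted p = 0.00225). The 3 sets are apart, and miR-99b-5p stood below miR-380-3p by -0.29 ± 0.10 (adjusted p = 0.0442).

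UNC5D measured 1.23, 1.45, 0.980 and 1.51 CPM in the controls and 0.521, 1.10, 0.407 and 0.537 under miR-485-3p (-1.07 ± 0.29, adjusted p = 0.00791), with 1 library inside the control range. UNC5B, the most abundant UNC5 receptor at 306 ± 16.0 CPM, and UNC5A at 32.3 ± 4.19 were called under no mimic. NTN1 and NTN3, the netrins, stood near 1 CPM (0.926 ± 0.444 and 1.07 ± 0.219), and neither was called. The SEs of their changes were 0.40 to 0.50, against 0.14 for SLIT2.

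By role, the 31 ligands under miR-380-3p had 10 higher and 0 lower calls (32.3%), and the 27 receptors 3 higher and 3 lower (22.2%), against 10.9% of all genes. Under miR-99b-5p the ligands had 7 higher and 2 lower (29.0%) and the receptors 4 higher and 3 lower (25.9%), against 16.6%. Under miR-485-3p both had 3 higher and 5 lower (25.8% of ligands and 29.6% of receptors), against 21.1%. Under miR-100-3p the ligands had 5 higher and 1 lower (19.4%) and the receptors 3 higher and 1 lower (14.8%), against 5.96%. The difference between roles was not tested. The mimics also differed from each other: 51 of 58 members were called in at least 1 of the 15 pairs of mimics, where 64.9% of all tested genes were. By pair, miR-99b-5p differed from miR-380-3p in 19 members (24.0% of all genes were called), from miR-485-3p in 22 (33.5%), from miR-100-3p in 27 (23.4%), from miR-1915-3p in 23 (19.1%) and from miR-1283 in 20 (15.3%). For miR-380-3p the counts were 25 against miR-485-3p (29.0%), 22 against miR-100-3p (17.4%), 19 against miR-1915-3p (14.5%) and 18 against miR-1283 (11.6%). For miR-485-3p they were 25 against miR-100-3p (28.5%), 19 against miR-1915-3p (23.1%) and 14 against miR-1283 (19.5%). For miR-100-3p they were 21 against miR-1915-3p (11.4%) and 17 against miR-1283 (5.8%), and miR-1915-3p and miR-1283 differed in 0 (0.252%). The pairs share libraries. EFNB2, NRP1, ROBO2 and SEMA6A were called higher under 1 mimic and lower under another.

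Some members are neighbours in the genome (RefSeq, GRCh38.p14). ROBO2 and ROBO1 are next to each other on chromosome 3, and under miR-485-3p they were called lower and higher. EFNA4, EFNA3 and EFNA1 follow each other on chromosome 1, with changes under miR-485-3p of -0.54 (called), 0.40 (adjusted p = 0.0535) and 0.37 (called). SEMA3E, SEMA3A and SEMA3D follow each other on chromosome 7, with SEMA3C 3 genes away. Under miR-380-3p SEMA3D (1.13) and SEMA3C (1.25) were called, while SEMA3A (0.31) and SEMA3E (0.15) were not.

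Seed sites were searched as the 7 bases complementary to positions 2 to 8 of each microRNA within each gene's longest 3′ UTR (GENCODE v29, GRCh38), sense strand only. A UTR was found for 57 members. TACGGGT, the miR-99b-5p site, was in no member and in 1.26% of tested genes, and over all genes 40.5% with it fell and 8.87% without it. ATTACAT, the miR-380-3p site, was in 7 members (12.3%, against 15.0% of tested genes). Of these, PLXNA4 fell and EPHA5, ROBO2 and SEMA6D rose, whereas over all genes 14.6% with the site fell and 4.13% without it. TGTATGA, the miR-485-3p site, was in 9 members (15.8% against 14.3%), of which UNC5D fell and NRP2 rose. Over all genes 28.0% with that site fell and 8.21% without it. CAAGCTT, the miR-100-3p site, was in 4 members (7.02% against 10.5%), of which PLXNA4 fell, and over all genes 9.44% with it fell and 2.75% without it.

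PLXNA4 is the member that fell under 2 mimics and held sites for both. Its sites and those of 2 members that rose are shown with up to 21 bases before them, site in capitals, as a match of letters only. All lie in the 3′ UTR, within 1 exon, and PLXNA4 is on the minus strand.
PLXNA4, miR-380-3p site, chr7:132129727-132129756: caggcaggagaaagaatagcaATTACATtc
PLXNA4, first miR-100-3p site, chr7:132124618-132124647: gggatgggtcatgggaagaccCAAGCTTtc
PLXNA4, second miR-100-3p site, chr7:132123467-132123496: ccagttgtaacttggtaaaggCAAGCTTct
ROBO2, first miR-380-3p site, chr3:77648294-77648323: tttagtctaaaaccttagttcATTACATat
ROBO2, second miR-380-3p site, chr3:77649517-77649546: cttctgtatattgtttatggaATTACATgg
NRP2, miR-485-3p site, chr2:205778061-205778090: tgcaaattttaagattctcagTGTATGAgg
PLXNA4 also held a miR-485-3p site and 2 miR-1283 sites, and its changes under those mimics were 0.13 ± 0.14 and -0.24 ± 0.14, not called. Of the 20 falls of members in all, 3 had a heptamer site for the mimic, and 7 had one when only positions 2 to 7 were required.

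Under miR-1915-3p none of 58 members was called (edgeR), where 0.246% of all tested genes were (0.0133% higher and 0.232% lower), and 9 members had an unadjusted p under 0.05. DESeq2 called 1, EPHA2 (0.551% of all genes were called). So did the fits with only the 8 libraries of the comparison (0.226%), with a replicate block (0.332%) and with the GC slope (1.2%). EPHA2 is an Eph receptor often raised in tumours. It measured 10.4 ± 0.325 CPM in the control and 6.55 ± 0.627 under miR-1915-3p (-0.66 ± 0.15, adjusted p = 0.0656), with no overlap. Replicates 1 and 4 of miR-1915-3p have a suffix in their titles that is not explained. Without those 2 libraries no member was called either. The miR-1915-3p site, CCCTGGG, was in 18 members (31.6%, against 23.1% of tested genes) and the miR-1283 site, TTTGTAG, in 14 (24.6%, against 20.8%). Under miR-1283 none of the members was called by edgeR or DESeq2, where 0.0199% of all genes were, and 7 had an unadjusted p under 0.05.

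Other genes of the pathway were taken from a list of 92 genes, of which 86 were tested: other guidance cues and receptors, and the kinases, GTPases and scaffolds that carry their signal. Under miR-99b-5p 9 rose and 14 fell (26.7% of the list, against 16.6% of all tested genes). MICAL2, an actin oxidase downstream of plexins, fell from 10.4 ± 0.728 to 5.48 ± 0.790 CPM (-0.92 ± 0.10, adjusted p = 2.45e-07), RAC1, the GTPase that drives membrane protrusion, by -0.54 ± 0.06, and FARP2, a RAC1 exchange factor, by -0.57 ± 0.07. LRRC4C, a netrin-G ligand, rose from 2.61 ± 0.398 to 6.94 ± 1.72 CPM (1.40 ± 0.20, adjusted p = 8.76e-06). Under miR-380-3p 10 rose and 5 fell (17.4%, against 10.9%), and the 4 smallest adjusted p-values were those of LRRC4 (0.65 ± 0.09), the collapsin response protein DPYSL5 (0.51 ± 0.08), the kinase PAK1 (0.39 ± 0.06) and the adhesion molecule CNTN1 (0.61 ± 0.12).

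Under miR-485-3p 10 of the list rose and 9 fell (22.1%, close to the 21.1% of all genes). RHOA, the GTPase of growth cone collapse, fell from 326 ± 21.8 to 222 ± 10.1 CPM (-0.55 ± 0.07). PAK1 (0.38 ± 0.06) and RGMB, a NEO1 ligand (0.32 ± 0.07), rose. Under miR-100-3p 13 rose and 1 fell (16.3%, against 5.96%). LRRC4 (0.59 ± 0.09), the actin-binding ABLIM3 (1.10 ± 0.18) and the CDK5 activator CDK5R1 (0.41 ± 0.08) were among those that rose. Under miR-1915-3p 1 was called (1.16%, against 0.246%), LRRC4 at -0.42 ± 0.09 (adjusted p = 0.0378). That call was lost without any 1 of 7 of the 8 libraries, control replicate 2 being the exception, and without the 2 libraries with a title suffix. Under miR-1283 none was called by edgeR or DESeq2, and 3 had an unadjusted p under 0.05. LRRC4, which binds netrin-G2, was called higher under miR-380-3p and miR-100-3p and lower under miR-1915-3p.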

How the data were processed

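Polyadenylated RNA of 28 Kelly cell libraries was sequenced from a stranded kit, per the labels' protocols. The authors aligned reads to hg19 with STAR, per the submitters' processing notes. The counting tool, annotation and strand setting are not given in the sources used here, so reads of overlapping or antisense genes may not be told apart. Deposited values are expected counts (10.2% not whole), rounded here before testing.

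A generalised linear model over all 7 groups was fitted with edgeR 4.0.16 (quasi-likelihood, TMM factors 0.948 to 1.03, filterByExpr, 15058 genes tested, 21 residual degrees of freedom). The variation between libraries of a group beyond counting noise was 12.2%. Tests were two-sided, with Benjamini-Hochberg adjustment over all genes in each comparison and calls at an adjusted p under 0.05. CPM use effective library sizes and are given ± SD of 4 libraries, with log2 changes ± SE. The precision is set by the spread between libraries, at 10992874 to 23296088 counts each. Tested on simulated data of the miR-99b-5p comparison (15058 genes), the fit recovered 64.2% of 1.5-fold and 85.7% of 2-fold changes, and 5.6% of its calls were false. There, 95 genes were changed 1.5-fold and 105 genes 2-fold, in the miR-99b-5p libraries only, and each gene was drawn independently. The real comparison called 2498 genes and its libraries differ in GC slope, so these rates need not hold for the real data.

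The members and gene lists were chosen with earlier results of these data known. Every member is named with its control level. By the rule for named genes, called members with an absolute log2 change of at least 0.5 have their values, for up to 12 per mimic by adjusted p, and other called members their log2 change. Under miR-380-3p, where 14 passed that size, all have values. The 4 most abundant members of a family are named also where not called, members within 5 counts of the minimum mean of 10 are named, and the pathway list gives up to 4 called genes per mimic by adjusted p, of which 1 gene is not reported here. UTRs are from GENCODE v29 on GRCh38 (minimum 50 bases, 12532 tested genes), not the build of the counts. Alternatives were other scalings, filters, DESeq2 1.42.0, only 8 libraries, a replicate block, leaving out libraries, a hexamer site and, added later, the GC slope.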

Additional observations from a re-analysis of the deposited data

Results flagged for a closer look

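In 406 combinations of a member and a group of 4 libraries, 11 had 1 library far from the other 3 by Dixon's test, and chance gives about 1 in 20. EPHA8 measured 3.66 CPM in miR-99b-5p replicate 2 (others 6.19 to 6.64) and 9.59 in miR-1283 replicate 4 (others 5.37 to 5.72). The same miR-1283 replicate 4 was apart for EFNB1 at 32.2 (others 21.0 to 22.7) and for EFNA5 at 27.2 (others 28.7 to 28.8). UNC5B measured 223 in miR-380-3p replicate 4 (others 298 to 309). SLIT2 measured 13.5 in miR-99b-5p replicate 7 (others 10.9 to 11.3). NTN3 measured 1.83 in miR-485-3p replicate 2 (others 0.813 to 0.911), and UNC5D 1.24 in miR-1283 replicate 1 (others 1.10 to 1.12). Among semaphorins, SEMA5A measured 2.64 in miR-100-3p replicate 3 (others 1.63 to 1.68), SEMA7A 8.28 in miR-1915-3p replicate 1 (others 10.5 to 10.9) and SEMA3C 1.22 in control replicate 2 (others 0.941 to 0.987). Of these 11 groups, that of SEMA3C enters calls against the control, under miR-99b-5p and miR-380-3p, and that of SLIT2 enters its comparison with miR-380-3p.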

How the results depend on the processing

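Of the 58 calls of a member under a mimic, 34 were kept under every alternative, 24 were lost under at least 1 and none was reversed. Fitting without the filter lost 15, only the 8 libraries of a comparison 14, the replicate block 8, DESeq2 4 and library-size scaling 3, while median-of-ratios scaling, a mean CPM of at least 1 and the GC slope lost none. UNC5D and SEMA3G under miR-485-3p were lost with only the 8 libraries (adjusted p = 0.0584 and 0.0623).

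The rule set for pairing libraries by replicate number was that every pair with the same number correlate above 0.1. It was not met, but so strict a rule cannot exclude a partly shared structure. Of 67 pairs with the same number 27 were above 0.1 (median 0.05), against 60 of 269 with different numbers (median -0.01). For replicate 4 it was 9 of 15 (median 0.17). With the replicate block 17 members were called under miR-99b-5p (9 higher and 8 lower, where the fit without it gave 11 and 5), 12 under miR-100-3p (8 higher and 4 lower), 19 under miR-485-3p, 13 under miR-380-3p, 1 under miR-1915-3p and 0 under miR-1283, and 2 genes of the pathway list under miR-1915-3p. Over all genes the block gave 17.7% under miR-99b-5p, 6.48% under miR-100-3p and 23.2% under miR-485-3p. The shares were 11.6% under miR-380-3p, 0.332% under miR-1915-3p and 0.0199% under miR-1283.

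Members called under miR-485-3p went from 16 to 9 with only the 8 libraries and to 29 with the GC slope. Over all genes the share went from 21.1% to 13.0% and 32.4%. With the GC slope 18 members were called under miR-100-3p (11.7% of all genes, where the main fit gave 5.96%) and 1 under miR-1915-3p (1.2%). DESeq2 and the fit of only 8 libraries also called 1 under miR-1915-3p (0.551% and 0.226% of all genes). DESeq2 gave 11 higher and 5 lower under miR-380-3p (11.9% of all genes). Leaving out 1 library gave 12 to 18 members under miR-99b-5p, 11 to 15 under miR-485-3p, 9 to 10 under miR-100-3p and 10 to 14 under miR-380-3p, the lowest without miR-380-3p replicate 3 or 4 or control replicate 4. The pathway list under miR-380-3p (15) went to 9 without the filter and 26 with the GC slope, and under miR-485-3p (19) to 9 with only the 8 libraries and 38 with the GC slope. Under miR-100-3p (14) it went to 9 without the filter, and leaving out 1 library gave 9 (without control replicate 1) to 13. Under miR-1915-3p (1) it went to 0 without the filter, with only the 8 libraries and without the libraries with a title suffix, to 4 with the GC slope, and to 0 to 1 when 1 library was left out. Of all 29768 genes, the fit without the filter called 3.85% under miR-380-3p, 1.89% under miR-100-3p and 0.0941% under miR-1915-3p. With the GC slope 18.4% of all genes were called under miR-380-3p. Shares over all genes when 1 library was left out are not given here. A hexamer in place of a heptamer, found in more members for each active mimic, raised the falls of members with a site from 3 to 7. The causes of these shifts were not tested.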
